A study of Oreochromis niloticus with 16 samples.

Results

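The eye library of adult Nile tilapia was compared with the 8 other adult libraries that are not brain. The eye is 1 of 16 small RNA libraries of the series, which also holds 2 brain libraries and 5 libraries of embryos and larvae from 2 to 10 days post-fertilization (dpf). All fish were of the Chitralada strain, a farmed stock, with no treatment or altered genotype named in the labels. The adults were 6 months old per the study's methods, although its search example lists a greater age for the male white muscle sample. The eye and liver libraries were made from fish of both sexes, the heart library from females, and white and red muscle were each sequenced from 1 female and 1 male library. Ovary and testis had 1 library each, and the titles give both female muscle libraries the same fish number. Every group except the muscles and brain therefore had a single library, and the eye differences carry no replicate check. An eye holds retina, lens, cornea, pigment epithelium and vessels, and the sources do not say which of its parts were taken. In such bulk RNA, more cells of a type and more RNA per cell cannot be told apart. The libraries held 941828 (ovary) to 11517367 (male red muscle) divided reads, meaning reads shared among the loci they match, and the eye held 2005397. Levels are given as CPM, the divided reads of a mature miRNA name, summed over its loci, in 1000000 divided reads of its library. There were 577 names in all.

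The miR-183 cluster is a set of neighbouring precursors, miR-183, miR-96 and miR-182, transcribed together in vertebrate sensory cells. It is best known from retinal photoreceptors and the hair cells of the inner ear, where loss of these miRNAs in mice impairs the cells. The eye also holds neurons, which express miR-124 and miR-9, and epithelia of lens, cornea and pigment layer, in which miR-184 and miR-204 are abundant. Because read totals are fixed by sequencing, a group of miRNAs that fills most of a library lowers the CPM of every other name in it.

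The miR-183 cluster filled most of the eye library. Its 9 names took 70.2% of the eye reads (95% Wilson interval 70.1 to 70.2%), of which miR-183 names took 55.1%, miR-182 names 10.1% and miR-96 names 5.02%. Among the 8 other libraries the summed share was 1.12% in ovary, 0.0401% in testis, 0.0252% in liver, 0.0121% and 0.00920% in white muscle of the male and female, and 0.00742% and 0.00579% in red muscle of the female and male. In heart it rested on 8 reads, a share of 0.000625%. The eye stood above all 8 and ovary was the next highest, while the other 7 ran from 0.000625% in heart to 0.0401% in testis. The summed level of the eye was 62.7-fold that of ovary (interval 61.5 to 63.9, counting error only) and 1748-fold that of the next library when ovary was left out. Intervals and floors here cover counting error only, since the reads carried no molecular identifiers. Brain, which was not part of the comparison, had 0.0822% in the female and 0.0498% in the male library.

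**Figure D1:**
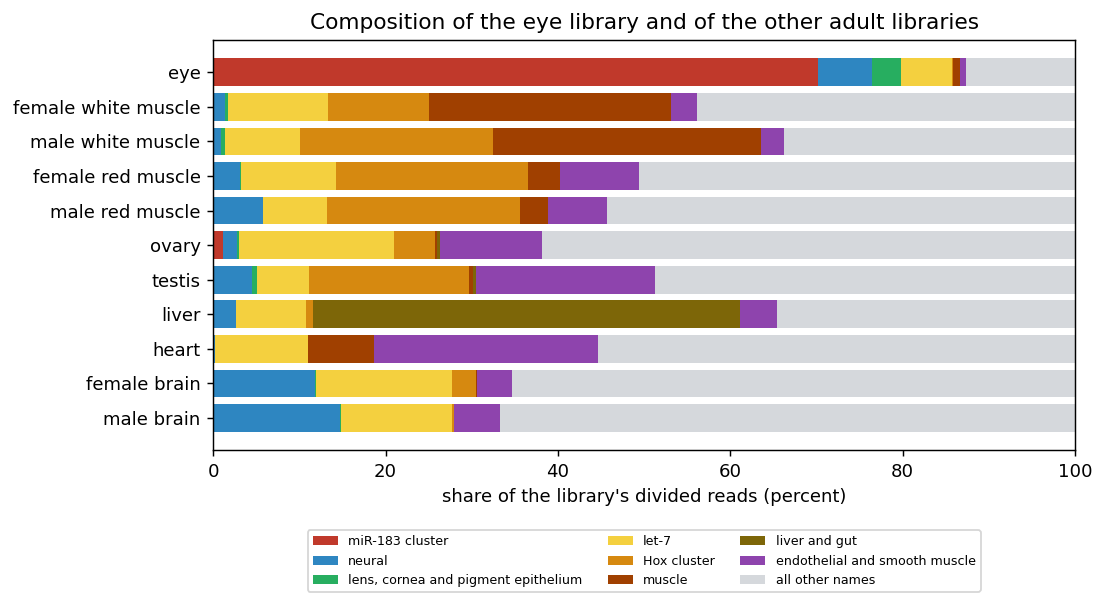
Share of each library's divided reads, in percent, taken by groups of miRNAs, with 1 horizontal bar for each of the 11 adult libraries. The miR-183 cluster takes 70.2% of the eye and at most 1.12% of the other libraries. On the library total the neural list takes 6.32% of the eye and 11.7 to 14.7% of the brain libraries. Without the cluster in its total the eye's neural sum was 211790 CPM, against 116720 to 146870 in brain on the library total.

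Levels follow for 3 markers, miR-183-5p, miR-182-5p-2 and miR-96-5p, which were among the 4 most abundant eye names. They were chosen with earlier results of these data known, so their levels give no independent check of the label. miR-183-5p reached 550491 CPM in the eye, against 14.4 and 42.2 in white muscle (female library first, here and below), 40.6 and 39.4 in red muscle, 9457 in ovary, 115 in testis, 177 in liver and 3.12 in heart. The eye was above every other library, and ovary stood apart from the remaining 7. The ratio of eye to ovary was 58.2 (57.0 to 59.4), and without ovary the ratio to the next library, liver, was 3110. miR-182-5p-2 had 60619 CPM in the eye, 36.5 and 50.2 in white muscle, 22.3 and 12.8 in red muscle, 1082 in ovary, 54.5 in testis and 31.9 in liver, with 0 reads in heart, which allows up to 2.34 CPM. Again only ovary came within 100-fold of the eye, at a ratio of 56.0 (52.7 to 59.7). miR-96-5p had 50151 CPM in the eye, 19.5 and 11.9 in white muscle, 3.25 and 0.434 in red muscle, 537 in ovary, 229 in testis, 31.1 in liver and 2.34 in heart. Its ratio of eye to ovary was 93.3 (85.5 to 102). The log2 difference between the eye and the mean of the other tissues was 13.42 for miR-183-5p (SE 0.67, adjusted p = 4.02e-09, edgeR), 12.68 for miR-182-5p-2 and 11.92 for miR-96-5p.

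miR-182-5p, the mature form of 2 further miR-182 loci, had 40164 CPM in the eye, 21.1 and 15.6 in white muscle, 7.86 and 5.30 in red muscle, 109 in ovary, 2.80 in testis, 11.9 in liver and 0.781 in heart. The ratio of eye to ovary was 370 (305 to 455), so that the miR-182 copies were not in the same proportion in the 2 libraries. Ovary held 0.271% of the eye level of miR-182-5p but 1.78% of that of miR-182-5p-2 and 1.72% of that of miR-183-5p. The passenger arms were rare. miR-183-3p had 128 CPM in the eye and at most 4.25 in the 8 others, and miR-182-3p had 58.3 CPM in the eye and at most 0.233 in the 8 others, with 1.38 in female brain. miR-96-3p had 7.98 CPM in the eye, under the minimum of 10 CPM, as did the 2 remaining names of the list.

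The reads of several of these names match more than 1 locus and were shared by the authors. miR-183-5p sits at 3 loci that each matched 1103397 to 1103484 eye reads, and miR-96-5p at 3 loci of 100561 to 100572 reads, so the files cannot tell which copy was active. Of the miR-182 loci, mir-182-1 kept 121566 of its 134922 eye reads after sharing, while mir-182-2 and mir-182-3, which have the same mature form, kept 40272 of 87222 each.

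**Figure D2:**
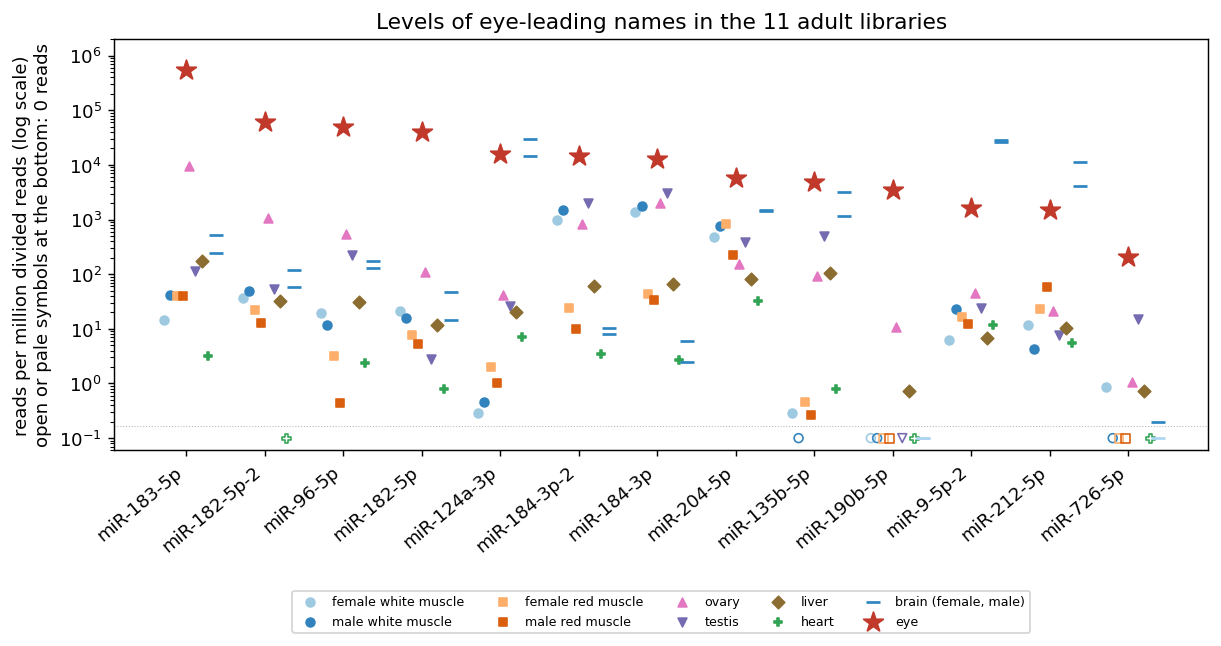
Level in CPM (log axis) of 13 names that led the eye, in the eye (star), the 8 other libraries and the 2 brain libraries (dashes), with 0 reads drawn at the bottom as open or pale symbols. The eye star lies above all 8 other libraries for every name shown. On the library total miR-9-5p-2 and miR-212-5p were above the eye level in both brain libraries and miR-124a-3p in the female one. miR-190b-5p had 0 brain reads.

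A name was counted if it reached 10 CPM in at least 1 of the 9 libraries, and called if the eye differed at least 4-fold from the highest or from the lowest of the 8 others, with levels under 3 reads set to 3 reads. Of 305 names counted, 35 (11.5%) were called above the highest and 11 (3.61%) below the lowest. Against the median of the 8 others, 54 (17.7%) were called above and 76 (24.9%) below. The 35 names were 6 of the miR-183 cluster, 17 of the neural list, 5 of the list for lens, cornea and pigment epithelium, and 7 of no list. With levels raised to 3 reads, ovary was the highest of the others for 23 of the 35. It was testis for 5, female red muscle for 3, male red muscle for 2, and liver and heart for 1 each. For 11 of the 35 the highest other library stood at its floor of 3 reads, so their ratios are lower bounds. All 11 were counted under ovary, whose total was the smallest and whose floor of 3.19 CPM was thus the highest. For miR-103-5p-2, which is among them, ovary had 0 reads and liver 13.8% of the eye level. The smallest ratio inside the rule was 4.07, of miR-204-3p-3, with 13.0 CPM in the eye and under the ovary floor of 3.19 elsewhere. The next ratio outside it was 3.78, of miR-129-3p-2, with 26.4 CPM in the eye and 6.99 in female white muscle.

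The same 9 libraries were set against the spread between female and male libraries of white muscle, red muscle and brain, with edgeR's quasi-likelihood test on the log scale. This takes the eye to vary like those pairs, with 3 residual degrees of freedom for each name, and compares it with the mean of 6 tissues. The test also borrows spread across all names, so its p-values rest on that borrowing and not on the 3 pairs alone. Of 436 names tested, 72 (16.5%) were higher in the eye and 14 (3.21%) lower at a Benjamini-Hochberg adjusted p under 0.05, and 128 had an unadjusted p under that value. All 35 names called above the highest were among the 72. This overlap is no separate check, because the counts are the same and a name above all 8 libraries also lies above the mean of their tissues. The filter, at least 10 reads in at least 1 library, also let in names through the eye alone, such as miR-190b-3p. The median log2 difference over all names tested was -0.41, and -1.13 when libraries were scaled by their totals, where 58 names were higher and 29 lower.

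**Figure D3:**
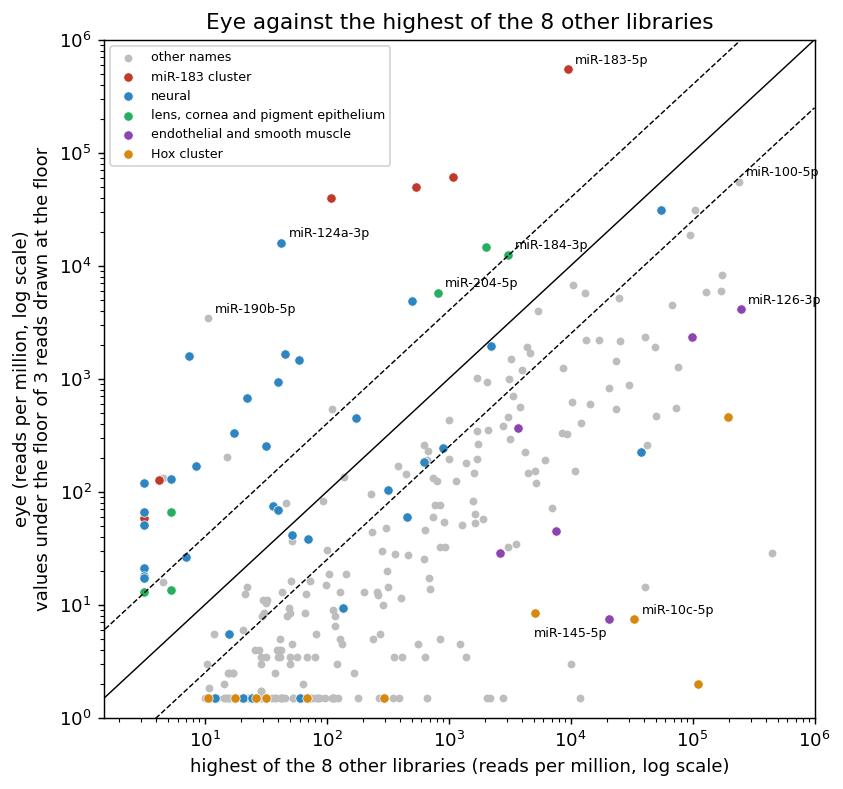
Eye level against the highest level among the 8 other libraries, both in CPM on log axes, for the 305 names counted, coloured by list. The solid line marks equality and the dashed lines a 4-fold difference. The miR-183 cluster and many neural names lie above the upper line, while most other names lie below equality.

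Neural miRNAs formed the largest group among the 35. The list held 72 names, of which 36 were counted: 17 were above the highest of the 8 others and 0 below the lowest, against 11.5% and 3.61% of all names. By edgeR, 30 of the 56 tested were higher and 0 lower, against 16.5% and 3.21% of all names. Names of a family, such as those of miR-9 and miR-124, are arms and copies that can share reads. List counts here and below are therefore not counts of independent members. The list's summed level was 63193 CPM in the eye, and 1989 (heart) to 57242 (male red muscle) in the 8 others. On the library total the sums were thus close in eye and male red muscle, while without the cluster in the totals they were 211790 and 57245. Brain summed to 116720 to 146870 CPM on the library total, above the eye on that total and below the eye's sum without the cluster. The cluster share of brain was at most 0.0822%. In male red muscle miR-181a-5p made up most of the list at 55213 CPM. In the eye it had 31306 CPM, within the range of the others, and it was 1.90-fold above the highest without the cluster in the totals.

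miR-124a-3p, a neuronal miRNA of vertebrates, had 15998 CPM in the eye, 0.282 and 0.467 in white muscle, 1.97 and 1.04 in red muscle, 42.5 in ovary, 25.99 in testis, 20 in liver and 7.03 in heart. The eye was above all 8, where it was lowest in white muscle and highest in ovary. The ratio to ovary was 376.7 (277 to 527), and 616 to testis when ovary was left out. Its log2 difference was 12.14 (SE 0.63, adjusted p = 4.02e-09, edgeR). The brain libraries had 30369 and 14668 CPM, on either side of the eye on the library total. Its 3p reads were spread over 6 loci that share the mature form. Of the partner arms, miR-124a-5p had 119 CPM in the eye and 0 reads in all 8 others, a ratio of at least 37.3 against the ovary floor.

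The miR-9 names given here, known from neural progenitors and neurons, had lower levels in the eye than in brain on the library total. miR-9-5p-2 had 1654 CPM in the eye, 6.21 and 23.1 in white muscle, 16.6 and 12.2 in red muscle, 45.7 in ovary, 23.7 in testis, 6.67 in liver and 11.7 in heart, a ratio to ovary of 36.2 (26.8 to 50.1). The brain libraries had 26205 and 28325 CPM. miR-9-3p-3 had 1604 CPM in the eye and at most 7.43 in the 8 others, a ratio of 216 (105 to 537), with 2163 and 3059 in brain. miR-9-3p-2 and miR-9-3p-5 had 946 and 679 CPM in the eye, with ratios to the highest other library of 23.8 and 30.5. Of the 7 miR-9 hairpins with at least 50 eye reads, which share their 5p reads, the 5p arm gave 19.97 to 42.5% of divided reads in the eye. It gave 56.1 to 90.4% in female brain and 46.6 to 86.2% in male brain. Their 5p reads were divided among more loci than their 3p reads, so these shares do not give the leading arm of a hairpin. In the eye mir-9-1 kept 473 of 3312 matching 5p reads and 1896.5 of 1898 matching 3p reads.

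The miR-132 and miR-212 names, whose shared hairpin cluster responds to neuronal activity in mammals, were also above all 8 others. miR-212-5p had 1467 CPM in the eye, 11.9 and 4.20 in white muscle, 22.9 and 59.4 in red muscle, 21.2 in ovary, 7.64 in testis, 10.4 in liver and 5.46 in heart. Male red muscle came nearest, at a ratio of 24.7 (22.7 to 26.9), and without it the ratio was 64.1. miR-132-3p had 329.6 CPM in the eye and at most 17.5, in male red muscle, without which its ratio went from 18.8 to 29.9, and miR-132-5p-2 had 131 CPM and at most 5.34. On the library total brain was above the eye for each of the 3, with 4157 and 11310 CPM for miR-212-5p.

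miR-135b-5p had 4858 CPM in the eye, 0.282 and 0 in white muscle, 0.464 and 0.260 in red muscle, 92.4 in ovary, 501 in testis, 104 in liver and 0.781 in heart. The 5 muscle and heart libraries were near 0 and the gonads and liver were not. The ratio to testis was 9.70 (8.96 to 10.5), and 46.9 to the next library without testis. Both brain libraries, at 1170 and 3265 CPM, were below the eye. miR-129-5p, a brain miRNA, had 171 CPM in the eye, at most 8.49 in the 8 others, and 1097 and 1668 in brain. miR-219-3p-3 and miR-219-3p-2, of a family known from myelinating oligodendrocytes, had 65.8 and 51.4 CPM in the eye, at most 2.12 in the 8 others, and 125 to 256 in brain. miR-181b-5p had 253 CPM in the eye, a ratio of 7.95 to liver.

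Other neural names were not above the highest of the 8 others by the 4-fold rule. miR-128-3p, abundant in neurons, had 245 CPM in the eye, just under the 8 others (250.3 to 899) on the library total, and 17369 and 20816 in brain. miR-7a-5p had 226 CPM in the eye and 37863 in testis, 9643 in ovary and at most 85.2 in the rest, so the eye lay within the range. miR-137b-3p had 75.8 CPM in the eye, a ratio of 2.07 to testis, and miR-153a-3p had 60.3 CPM against 454 in testis, and both were higher than the mean of the tissues by edgeR (adjusted p = 1.26e-05 and 1.98e-04).

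All 6 counted names of the list for lens, cornea and pigment epithelium, which holds the miR-184 and miR-204 names, were higher by edgeR, against 16.5% of all names. Of these 5 were above the highest of the 8 others, against 11.5% of all names. All 6 are arms and copies of miR-184 and miR-204 alone, so these counts are not independent. The summed level of the list was 33062 CPM in the eye, 38.3 (heart) to 5493 (testis) in the 8 others and 1443 to 1545 in brain. miR-184-3p-2 had 14584 CPM in the eye, 986 and 1513 in white muscle, 23.7 and 9.90 in red muscle, 821 in ovary, 2024 in testis, 60 in liver and 3.51 in heart. White muscle and the gonads formed a middle group under the eye, and red muscle, liver and heart a low one. The ratio to testis was 7.21 (6.92 to 7.50) and the log2 difference 7.67 (SE 0.57, adjusted p = 1.75e-07, edgeR). miR-184-3p had 12587 CPM in the eye, 3071 in testis, 2048 in ovary, 1373 and 1786 in white muscle and at most 66.7 in the other 4, a ratio of 4.10 (3.97 to 4.24) to testis. Ovary lay above white muscle for this name and below it for miR-184-3p-2. Sharing took 42.2% of the reads matching mir-184-1 and 38.7% of those matching mir-184-2, so the copies are told apart only in part. With whole-number reads at every locus the ratio of miR-184-3p was 3.29, under the 4-fold call.

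miR-204-5p, abundant in vertebrate pigment epithelium and lens, had 5799 CPM in the eye, 473 and 749 in white muscle, 817 and 220.1 in red muscle, 155 in ovary, 393 in testis, 83.0 in liver and 32.0 in heart. The 8 others all lay below the eye, with a ratio of 7.09 (6.89 to 7.31) to female red muscle. The brain libraries had 1432 and 1529 CPM, also below the eye. miR-204-3p had 66.8 CPM in the eye, 5.31 in ovary and under 1 CPM in each of the other 7.

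Among the 7 names of no list, miR-190b stood out for having almost no reads in the adult libraries other than the eye. miR-190b-5p had 3438 CPM in the eye from 6894 reads at 1 locus, 10.6 CPM in ovary and 0.741 in liver, and 0 reads in the other 6 libraries and in both brain libraries. The ratio to ovary was 324 (176 to 675) and the log2 difference 15.61 (SE 0.88, adjusted p = 1.80e-07, edgeR), a fitted value that depends on the prior count where libraries hold 0 reads. Its partner arm, miR-190b-3p, had 62.3 CPM in the eye and 0 reads in all 8 others and in brain, a ratio of at least 19.6. miR-726, a fish miRNA, showed a like pattern at lower levels. miR-726-5p had 205 CPM in the eye, 15.3 in testis, at most 1.06 in the rest and at most 0.197 in brain, and miR-726-3p had 132 CPM in the eye and 4.59 in testis, with 0 reads in the other 7 libraries and in brain. Without testis the ratio of miR-726-5p went from 13.4 to 64.3. The other names, miR-724-5p, miR-723-3p and miR-103-5p-2, had 547, 51.4 and 21.4 CPM in the eye. They were higher in both brain libraries on the library total. Without heart the ratio of miR-724-5p went from 4.97 to 15.7. On the library total 17 of the 35 names were higher in the eye than in both brain libraries and 15 lower than in both. Of the 35, 9 had under 10 CPM in each brain library. The order against brain was not counted again without the cluster, where the summed eye level is 3351400 instead of 1000000 CPM.

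The 11 names below the lowest of the 8 others depended on the total. With the miR-183, miR-182 and miR-96 names left out of each total, the median ratio of eye to the median of the others went from 0.630 to 2.17, and only 2 of the 11, miR-145-5p and miR-10a-5p, were still called. With TMM factors the median ratio was 0.980 and 6 of the 11 were called. All 35 names above the highest were called under each of these totals, along with 16 more for the total without the cluster (51 in all) and 7 more with TMM (42). The 76 names below the median became 27 without the cluster and the 54 above it became 99.

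**Figure D4:**
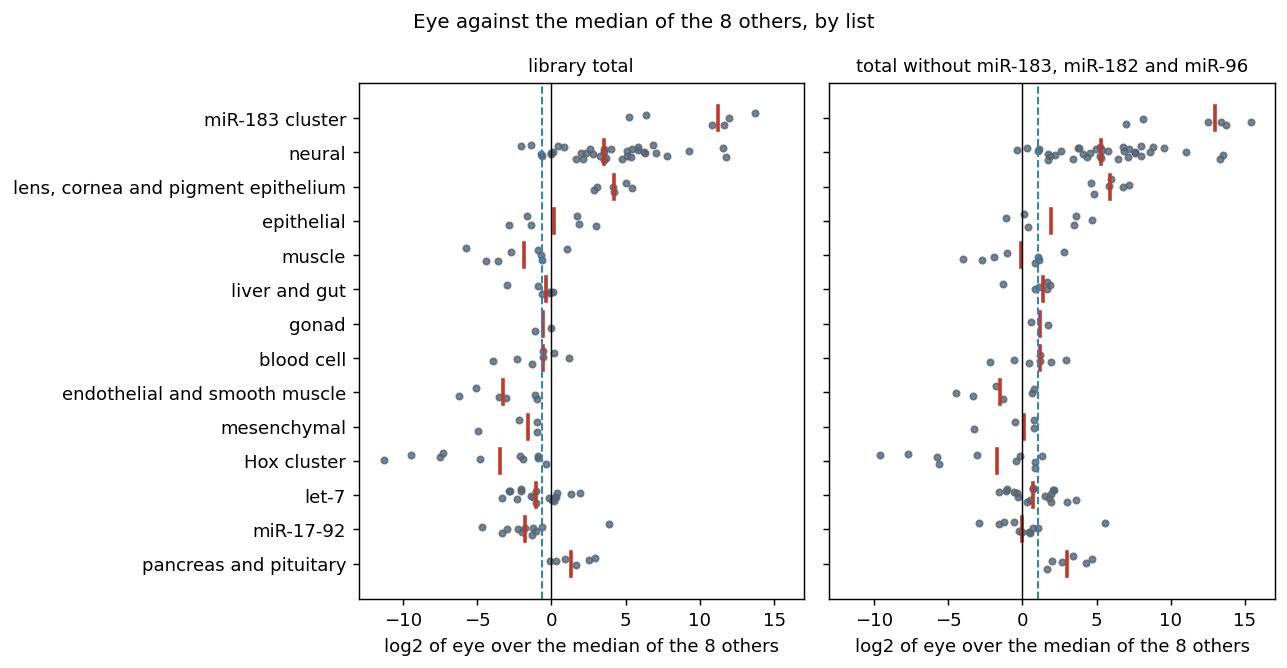
Log2 ratio of the eye to the median of the 8 other libraries for each counted name, by list, on the library total (left) and with the miR-183, miR-182 and miR-96 names left out of the total (right). Red bars mark list medians and the dashed blue line the median of all counted names, at ratios of 0.630 and 2.17. The Hox and endothelial and smooth muscle lists lie left of the blue line on both totals, and the neural and lens lists right of it.

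miR-145-5p, a smooth muscle miRNA, had 7.48 CPM in the eye from 15 reads, against 401 and 204 in white muscle, 488 and 631 in red muscle, 355 in ovary, 20796 in testis, 1520 in liver and 1810 in heart. The eye was 27.2-fold below the lowest of them, and 8.13-fold below without the cluster in the totals. The log2 difference was -6.43 (SE 1.21, adjusted p = 0.00108, edgeR). miR-143-3p, its cluster partner, had 2342 CPM in the eye and 2676 (liver) to 99399 (testis) in the others, and a log2 difference of -2.23 that did not pass (adjusted p = 0.0546). miR-126-3p, the endothelial miRNA, had 4128 CPM in the eye, 19186 and 13416 in white muscle, 31673 and 21616 in red muscle, 37331 in ovary, 80252 in testis, 37088 in liver and 248615 in heart. The eye was below all 8, with a log2 difference of -2.60 (SE 0.70, adjusted p = 0.0154), and without heart the adjusted p was 0.0686, the highest over the alternatives. Without the cluster in the totals the eye was slightly above the lowest library. The list of endothelial and smooth muscle miRNAs summed to 6922 CPM in the eye, below the 26784 to 259940 of the 8 others and the 41070 to 53452 of brain, and 3 of its 6 names were lower by edgeR, against 3.21% of all names. One of these, miR-126-5p (adjusted p = 0.0316), did not pass without female or male white muscle (0.0537 and 0.0604, the latter the highest over the alternatives) or without female brain (0.0515). The sum of the list stayed below all 8, at 23200 against 26787 to 259940, without the cluster in the totals.

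miRNAs of the Hox clusters, genes that set position along the trunk, were at low levels in the eye. miR-10b-5p had 460 CPM in the eye, 95232 and 194601 in white muscle, 183764 and 187974 in red muscle, 31738 in ovary, 53361 in testis, 4321 in liver and 177 in heart. Only heart was lower. Its log2 difference of -4.39 (adjusted p = 0.0298, edgeR) did not pass without female red muscle (adjusted p = 0.101, the highest over the alternatives) or without male red muscle (0.0980). The miR-10b-5p call was also lost without the cluster names, with RLE size factors, and with at least 10 reads asked in 2 libraries. miR-10c-5p had 7.48 CPM in the eye and 86.7 (heart) to 33305 (female red muscle) in the others, with a median of 19059. miR-10a-5p had 1.99 CPM in the eye, from 4 reads, and 28.1 (heart) to 110788 (testis) in the others, with an adjusted p of 0.0123 that was 0.0531 without female brain. Of the 10 Hox names counted, 6 were below the median by the 4-fold rule and 0 above, against 24.9% and 17.7% of all names. By edgeR 3 of 13 tested were lower, against 3.21% of all names. In brain, the Hox list summed to 27788 CPM in the female and 1899.8 in the male library, above the 478 CPM of the eye.

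Other names below all 8 were miR-30e-3p, with 32.4 CPM in the eye and 200 to 930 in the others, miR-25-3p, with 83.3 against 466 to 1587, and miR-1388-5p, with 19.9 against 89.4 to 315. Of these only miR-30e-3p passed edgeR (log2 difference -3.43, adjusted p = 0.0189), and none was called without the cluster in the totals. The remaining 5 of the 11, chosen for mention after their values were seen, were miR-17a-5p, miR-210-3p, miR-1388-3p, let-7c-3p and miR-n659-5p, each under 5 CPM in the eye. Just inside the rule lay let-7c-3p, 4.02-fold below the lowest, and just outside it miR-130c-5p, 3.65-fold below. Both had under 3 reads in the eye, as did miR-210-3p and miR-1388-3p, so these folds were set by the eye floor and are lower bounds. Of the 11, 7 were lower by edgeR.

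Of the most abundant eye names after the cluster, miR-100-5p, let-7a-5p and miR-99a-5p were not higher in the eye. Also among the most abundant, miR-181a-5p was higher by edgeR (log2 difference 2.91). miR-124a-3p and miR-184-3p-2, likewise among them, were called above the highest of the 8 others. miR-100-5p had 55446 CPM in the eye and 69054 to 239398 in the 8 others, below all of them on the library total. It made up 18.6% of the eye reads outside the cluster, against 24.2% in ovary. On the library total let-7a-5p had 30859 CPM in the eye and 36158 to 104632 in the others, and miR-99a-5p had 18632, within their range of 12919 to 94714. The eye was the lowest of the 9 libraries for 71 of the 305 names counted on that total, and for 27 of 319 without the cluster in the totals. By edgeR miR-100-5p, let-7a-5p and miR-99a-5p did not pass. The eye needed 14 names to reach 90% of its reads, and 32 once the cluster was left out, more than the 15 to 26 of the other 8 libraries on the library total.

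Markers of muscle and blood were present in the eye, and their part in the other results was not tested. The muscle list summed to 8064 CPM in the eye, against 34762 as the median of the 8 others and up to 310650 in male white muscle. Most of it was miR-1-3p, the miRNA of heart and skeletal muscle, at 5942 CPM in the eye, against 128719 and 171908 in white muscle, 30997 in heart, 1405 and 189 in red muscle and 144 to 3134 in ovary, testis and liver. The eye was below white muscle and heart and above the other 5. miR-206-3p, of skeletal muscle, had 1266 CPM in the eye, 3780 to 75831 in the muscle libraries and at most 97.7 in the other 4. It passed edgeR as higher (log2 difference 3.15, adjusted p = 7.02e-04), a test against the mean of the logs over 6 tissues, while lying below all 4 muscle libraries on the library total. The blood cell list, led by miR-144 and miR-451 of red cells, summed to 2039 CPM in the eye, within the 1187 to 20667 of the others. Liver markers were near 0, with 28.9 CPM of miR-122-5p in the eye against 450152 in liver, and both miR-202 names of the gonad list had 0 eye reads, which allows up to 1.496 CPM.

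On the library total the epithelial names described here were within the range of the others. miR-205-5p, of stratified epithelia such as cornea and skin, had 944 CPM in the eye, 2062 and 1759 in white muscle, 182.8 and 56.2 in red muscle, 19.1 in ovary, 4.59 in testis, 237 in liver and 0.781 in heart. White muscle was above the eye and the other 6 below it, with a log2 difference of 5.53 against the mean of the tissues (adjusted p = 5.25e-06, edgeR). miR-203a-3p, also of stratified epithelia, had 135 CPM in the eye and 140.2 in male white muscle. miR-200a-3p and miR-200b-3p had 155 and 344 CPM in the eye and up to 5091 and 1698, in testis. Of the 6 epithelial names counted, 0 were above the highest or below the lowest, against 11.5% and 3.61% of all names. Without the cluster in the totals the eye was 1.53-fold above the highest for miR-205-5p and 3.23-fold for miR-203a-3p.

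The other lists gave few calls. The let-7 list summed to 59618 CPM in the eye, just under the 60436 to 179370 of the others, but above all 8, at 199810 against 60460 to 181400, without the cluster in the totals. Of its 18 counted names 0 were above the highest and 1 was below the lowest, against 11.5% and 3.61% of all names. The miR-17-92 list summed to 553 CPM, below the 2932 to 8774 of the others, and stayed below all 8, at 1853 against 2932 to 8774, without the cluster in the totals. Of its 11 counted names 1 was below the lowest, against 3.61% of all names. By edgeR 1 of 17 was lower and 2 were higher, against 3.21% and 16.5% of all names. The 2 were miR-92b-3p (80.3 CPM in the eye, at most 46.3 in the 8 others, log2 difference 6.16, adjusted p = 1.50e-04) and miR-92b-5p (3.99 CPM, 0 reads in the 8 others). The mesenchymal list, with miR-199a and miR-214, summed to 4210 CPM, below the 5658 to 65932 of the others, and was within their range without the cluster in the totals. In the list for pancreas and pituitary, 3 of 6 names were higher by edgeR, against 16.5% of all names. One was miR-217-5p, with 464 CPM in the eye, a range of 0.781 to 590.2 in 7 others and 3061 in liver. Another, miR-216a-5p (adjusted p = 0.0487), lost its call under most alternatives, with adjusted p up to 0.402. Of the 37 counted names that carry an n before their number, 0 were above the highest of the 8 others, against 11.5% of all names, while 3 were without the cluster in the totals and 2 with TMM factors.

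The arm from which most reads of a hairpin came was compared for hairpins with at least 50 eye reads. Of 185 such hairpins, 138 also had 50 reads in at least 4 of the 8 other libraries. In the eye 81 of these were led by the 5p arm, 54 by the 3p arm and 3 by neither. None was led by the arm opposite to that of every other library, and 14 (10.1%) were opposed to at least 1 of them. The paralogous mir-199a-1, mir-199a-2 and mir-199a-4, led by the 3p arm in the eye, were each opposed to 7 of the 8. The 5p share of mir-199a-1 was 45.47% (43.35 to 47.57%) in the eye and 45.55 to 85.25% in the others. The 5p share in the eye lay outside the range of the others for 47 (34.1%), above it for 30 and below it for 17, and for 17 it was more than 20 points from their median. A share counted as outside by any margin, such as 0.01 points for let-7a-1 or 19.0 points for mir-103-1. By rank alone 1 library among several is often at an end of the range. Paralogous hairpins share reads, so these are not independent counts. Shares were of divided reads, so they shift where the arms of a hairpin match different numbers of loci.

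The low level of miR-145-5p went with an unequal pair of arms. Its partner miR-145-3p had 371 CPM in the eye, 699 and 450 in white muscle, 1159 and 754 in red muscle, 3692 in ovary, 3605 in testis, 496 in liver and 429 in heart. The eye was below all 8 for miR-145-3p on the library total, but above 6 of them, at 1243 CPM, without the cluster in the totals, and its log2 difference of -0.60 did not pass (adjusted p = 0.729, edgeR). The 5p arm gave 1.98% (1.201 to 3.24%) of the mir-145 reads in the eye, 8.76% in ovary and 29.6 to 85.2% in the other 7. The hairpin mir-152 went the other way, with 96.7% (96.1 to 97.3%) 5p in the eye and 47.1 to 92.5% in the others. The 5p share of mir-103-1 was 20.5% (15.7 to 26.6%) in the eye and at most 1.54% in the others, and that of mir-148a 67.2% against 17.2 to 74.2%. That of mir-9-1 was 19.97% against 3.57 to 13.6% in 4 others, with 5p reads divided among more loci than the 3p reads. Of these, mir-103-1 and mir-9-1 gave names called above the highest, miR-103-5p-2 and miR-9-3p-2. For the mir-124a hairpins, mir-190b and mir-726, none of the 8 others had enough reads to compare. The eye shares of mir-183-1 and mir-184-1, which also gave names called above the highest, lay within the range of the others. mir-183-1 was 99.98% 5p in the eye and at least 98.9% 5p in 6 others, and mir-184-1 was at most 0.087% 5p in all libraries compared.

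**Figure D5:**
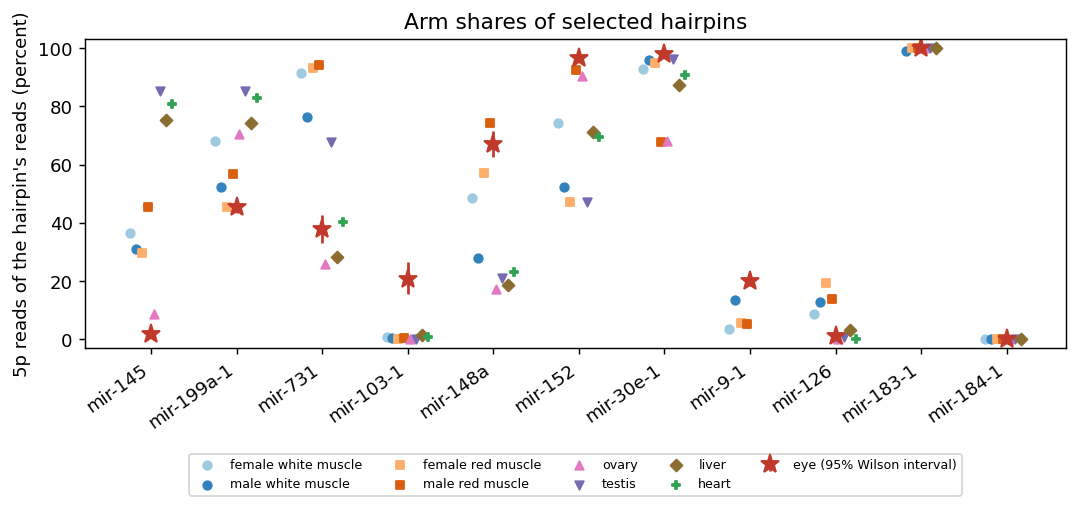
Share of a hairpin's reads from the 5p arm, in percent, for 11 hairpins in the eye (star, with 95% Wilson interval) and in those of the 8 other libraries that had at least 50 reads. The eye lies below all others for mir-145 and, by 0.08 points, for mir-199a-1. It lies above them for mir-103-1, mir-152, mir-30e-1 and mir-9-1, and with them for mir-183-1 and mir-184-1. Shares use divided reads, and the 5p reads of mir-9-1 were divided among more loci than its 3p reads.

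The leading eye names were also present in embryos and larvae, which contain developing eyes among all other tissues. On the library total several, among them miR-9-5p-2, miR-9-3p-5, miR-181b-5p and miR-724-5p, were higher in at least 1 stage than in the adult eye. Others, among them miR-183-5p, miR-96-5p, miR-124a-3p and miR-190b-5p, were lower than in the eye at every stage. The miR-183 cluster took 1.07% of the 2 dpf reads, 1.26% of the 3 dpf reads, 3.58% and 3.39% of those of 4 and 5 dpf, and 7.63% of the 10 dpf reads. The share was higher at 10 dpf than at any earlier stage and lower than in the adult eye. miR-190b-5p had 0 reads in the 2 dpf library, 140.2 and 194 CPM in those of 3 and 4 dpf, and 709 and 366 in those of 5 and 10 dpf, and was thus absent from the reads of the earliest stage alone. miR-124a-3p went from 5.53 CPM at 2 dpf to 910.3 at 3 dpf and 4688 at 10 dpf. miR-204-5p was at 52.3 CPM at 2 dpf and at 14392 at 5 dpf, the only stage above the adult eye on the library total. With 1 library per stage, none of these differences has a replicate check.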

How the data were processed

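Small RNA libraries (TruSeq kit, Illumina GAIIx, no molecular identifiers) of 16 tilapia samples were analysed from 1 deposited file each. Groups came from the labels, sex from the titles and the study's tissue list. The authors deposited raw counts per arm and locus, in which a read is counted at each locus it matches, and estimated counts, in which it is divided over those loci, both without normalization. PaTMan and the oreNil2 genome are named for the precursors and DESeq, without a version, in the submitters' processing notes. Which program counted the reads, and its mismatch limit, was not given in the sources used here. Each file has 736 lines, of which 2 have no name and 0 reads. The other 734 entries were summed to 577 names. Each name's CPM used the divided total of its library, from 941828 to 11517367 reads in the 9 libraries compared.

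Ratios used levels of at least 3 reads per library, names of at least 10 CPM in 1 library, and exact intervals at 95%. They were repeated with the cluster left out of the totals, with TMM factors and on whole-number reads. The test was edgeR 4.0.16 (R 4.3.3, limma 3.58.1) on rounded divided counts of 11 adult libraries, TMM factors, names with at least 10 reads in at least 1 library, tissue as the only term. Brain was not in the contrast, but it entered the spread, the TMM factors and the filter. Without brain 386 names were tested instead of 436. Standard errors are the absolute log2 difference divided by the root of F. DESeq2 1.42.0 was an alternative. Scripts were tested on simulated data. Other values used Python 3.11.15, numpy 2.4.6, scipy 1.17.1, pandas 2.3.3 and matplotlib 3.10.9. An exact one-sided permutation test of 1 library among 9 cannot go below p = 0.111, so none was run.

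The names given are the 25 with the largest ratio to the highest other library at 50 CPM or more in the eye, the 10 with the smallest ratio to the lowest at 50 CPM or more in each other library, the 10 most abundant in the eye, the names of the cluster list, those of the neural and lens lists at 50 CPM or more in the eye, the 4 most abundant of each other list, and partner arms. Other names were chosen after their values were seen. The comparison, the names and the 14 lists were chosen with earlier results of these data known. Arm shares were computed on divided reads for hairpins with at least 50 reads.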

Additional observations from a re-analysis of the deposited data

How the results depend on the processing

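With the miR-183, miR-182 and miR-96 names left out of the total, the names above the median went from 54 to 99. Those below the median went from 76 to 27 and those below the lowest from 11 to 2. The fold of the summed cluster over ovary went from 62.7 to 208. The latter sets cluster reads against the reads outside the cluster, so it is not a fold of library shares as 62.7 is. With TMM factors 6 names were below the lowest and the cluster fold was 111, and with whole-number reads at every locus these were 19 and 47.3. A 2-fold rule gave 38 below the lowest and 137 below the median, and an 8-fold rule 5 and 43. A minimum of 100 CPM gave 34 names above the median. The names above the highest numbered 24 to 51 over all settings. The 14 names lower by edgeR became 29 with library totals only, 9 with RLE size factors, 26 with no filter on low counts and 37 with DESeq2. The 72 higher ranged from 57, with at least 10 reads asked in 2 libraries, to 73.

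Leaving out each library in turn gave 35 to 39 names above the highest, 11 to 20 below the lowest, 52 to 59 above the median, 74 to 83 below it, a cluster fold of 62.7 to 1748, and 60 to 73 higher and 8 to 25 lower by edgeR. The ends 20 and 1748 came without ovary, 25 without female red muscle and 8 without female brain. Without ovary 21 names were lower. No called ratio or edgeR call of the names given changed direction, while log2 differences that did not pass took either sign, such as let-7a-5p (-1.06 to 0.05) and miR-128-3p (-0.81 to 0.21). With DESeq2, miR-124a-5p, miR-190b-3p and miR-726-3p did not pass (adjusted p = 0.0818, 0.117 and 0.0564, the highest over the alternatives of each). On whole-number reads miR-135b-3p, miR-184-3p, miR-204-3p-3 and miR-724-5p were no longer 4-fold above the highest, with ratios of 3.998, 3.29, 3.10 and 3.73. No paired analysis was possible because the eye has 1 library. Depth limits names near the floor, 3.19 CPM in ovary and 1.496 in the eye.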

Other observations

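miR-26a-5p, abundant in most adult tissues, had 5910 CPM in the eye, below all 8 other libraries on the library total, where it ranged from 8583 to 130026 CPM. Without the cluster in the totals the eye had 19808 CPM, within the range of the others. Its log2 difference was -2.30 (adjusted p = 0.0300, edgeR). Of the 185 hairpins with at least 50 eye reads, 22 had fewer than 50 in each of the 8 other libraries. These include the mir-124a hairpins, mir-190b and mir-726 described above. Paralogous hairpins among them share reads, and all were selected by their eye reads.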
